A study of Homo sapiens with 9 samples.

Results

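The RBPJ locus was taken as all called intervals on chr4:26055449-26485131 (hg38), which is the annotated RBPJ gene, chr4:26105449-26435131, with 50 kb added on both sides. It held 19 of the 174116 intervals in 6 deposited peak lists. The members fell into 3 regions inside the gene, named here the internal start region, the second interval and the extreme interval, and 7 isolated intervals.

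RBPJ is the protein through which the Notch pathway reaches DNA. In the absence of Notch signalling it recruits corepressors to its target genes. When a Notch receptor is cleaved, its intracellular domain enters the nucleus, binds RBPJ and recruits a Mastermind coactivator and histone acetyltransferases. RBPJ binds DNA motifs with the core TGGGAA.

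By their labels, the libraries came from 2 human cell lines. RBPJ binding was profiled by CUT&Tag, in which transposase tethered by an antibody tags the DNA next to the bound protein, in HEK293T, a line of embryonic kidney origin. Open chromatin was profiled by ATAC-seq, in which free transposase cuts accessible DNA, in cells labelled Jurkat, a leukaemic T cell line. The series asks how FBXO42, the substrate-recognition subunit of a ubiquitin ligase, bears on DNA binding by RBPJ and on chromatin. The 4 RBPJ lists were from HEK293T that was wild type (WT RBPJ) or FBXO42 KO (KO RBPJ), and from libraries titled RBPJ and RBPJK175R, both with the genotype FBXO42 KO. RBPJK175R is by its name RBPJ with arginine in place of a lysine. The 2 ATAC lists were from wild-type cells (WT ATAC) and FBXO42 KO cells (KO ATAC). Per the labels' protocols, lentiviruses carrying CRISPR constructs made the knockouts. The sources used here give neither whether the knockout cells were 1 clone or a pool nor how RBPJ or RBPJK175R was introduced. With 1 library per group and no replicates, no test between groups was possible, and every difference below is between 2 libraries.

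Depth differed between lists, and it was read from the lists themselves. The fold and the p-value of an interval together fix the number of reads piled up at its summit (the pileup) and the number expected there (the local background). The lowest background in a list, called the depth unit, was between 1.26 and 1.77 reads in WT RBPJ, KO RBPJ and titled RBPJ, 0.675 in titled RBPJK175R, 0.417 in WT ATAC and 0.184 in KO ATAC. Intervals given for counts are exact 95% intervals and cover counting error only, since reads without molecular identifiers are not independent molecules. The cell labels were checked by markers with a RefSeq start window, the 300 bases from 250 before to 50 after a start site. In the lists labelled Jurkat, an interval lay over the start of 1 of 10 T cell genes in WT ATAC, the kinase gene ZAP70, and of 0 of 10 in KO ATAC, against 52.7% and 40.5% of all 15843 protein-coding genes. The starts of CD3D, CD247, CD2, LCK and LAT, which encode T cell receptor and signalling components, had no interval in either ATAC list. Of 5 kidney and epithelial genes, WT ATAC had 3 (PAX2, SIX2 and CDH2) and KO ATAC had 1 (SIX2). In the lists labelled HEK293T, 3 of these 5 had an interval in WT RBPJ, 2 in KO RBPJ, 3 in titled RBPJ and 1 in titled RBPJK175R. The shares of all protein-coding genes were 50.8%, 34.5%, 34.4% and 23.7% in that order. Of the 10 T cell genes, WT RBPJ and KO RBPJ had 1, LCK, with 29 and 24 reads, and titled RBPJ and titled RBPJK175R had 0. Of 4 B cell and myeloid genes all lists had 0. The T cell genes did not bear out the label Jurkat, so the ATAC libraries are called by their label only. The start of FBXO42, the knockout target, had an interval in all 6 lists, with pileups of 90 reads in WT RBPJ, 39 in KO RBPJ, 38 in titled RBPJ, 21 in titled RBPJK175R, 21 in WT ATAC and 13 in KO ATAC. A lesion made by CRISPR need not remove a start site, so this does not check the knockout label.

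RefSeq (GRCh38.p14) gave 5 start windows for RBPJ, all on the forward strand, at start sites 26163458, 26319746, 26321014, 26321228 and 26343140. Of the 3 sequences below, the first is shown because it holds both TGGGAA matches found at RBPJ, in capitals (TTCCCA is the match on the reverse strand). The second is the only RBPJ start window with an interval in all 6 lists. The third is the most upstream start, which had an interval in none of them. Coordinates stand before each sequence, written 5′ to 3′ on the forward strand.
chr4:26319496-26319795: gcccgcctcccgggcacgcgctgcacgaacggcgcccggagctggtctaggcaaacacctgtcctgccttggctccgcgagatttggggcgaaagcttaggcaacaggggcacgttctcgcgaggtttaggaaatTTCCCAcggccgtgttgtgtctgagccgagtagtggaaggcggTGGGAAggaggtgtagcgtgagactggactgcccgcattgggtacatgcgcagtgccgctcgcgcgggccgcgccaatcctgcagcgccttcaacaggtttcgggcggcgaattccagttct
chr4:26320764-26321063: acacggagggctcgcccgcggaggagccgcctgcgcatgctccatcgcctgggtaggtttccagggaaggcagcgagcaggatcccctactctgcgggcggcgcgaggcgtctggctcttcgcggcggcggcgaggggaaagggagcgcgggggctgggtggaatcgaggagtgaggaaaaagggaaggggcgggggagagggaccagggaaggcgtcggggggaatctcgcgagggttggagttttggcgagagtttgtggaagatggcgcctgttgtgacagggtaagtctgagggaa
chr4:26163208-26163507: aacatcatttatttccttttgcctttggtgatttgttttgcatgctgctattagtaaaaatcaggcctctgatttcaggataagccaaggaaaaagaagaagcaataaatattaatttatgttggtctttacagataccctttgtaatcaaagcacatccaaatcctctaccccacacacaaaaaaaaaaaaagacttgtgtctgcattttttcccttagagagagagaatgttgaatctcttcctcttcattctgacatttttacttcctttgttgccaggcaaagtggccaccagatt

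The TGGGAA matches lay at chr4:26319631-26319636 on the reverse strand and chr4:26319674-26319679 on the forward strand, with 37 bases between them. They began 115 and 72 bases before the start site at 26319746. Searched on both strands, TGGGAA occurred at least once in 22.7% and at least 2 times in 3.50% of the 22199 start windows of protein-coding genes. Both matches extended to GTGGGAA, which occurred at least 2 times in 0.239% of windows. 1 of them extended to CGTGGGAA, which occurred at least once in 0.932%. The longer motifs contain the shorter one and were searched after the sequence had been seen. The other 4 RBPJ windows held no TGGGAA. The 3 clustered start windows were rich in G and C, with 64%, 66.7% and 75% in order of position, while the windows at 26163458 and 26343140 had 35.7% and 35.3%. The median of all windows was 62.3%.

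WT RBPJ held 4 intervals at the locus, KO RBPJ 3, titled RBPJ 1, titled RBPJK175R 2, WT ATAC 6 and KO ATAC 3. Other windows of the same length held a median of 2, 1, 1, 1, 3 and 2 intervals in the same order. At least as many as at RBPJ were found in 40.2%, 34.1%, 57.4%, 47.3%, 32.6% and 42.6% of them. The number of intervals at RBPJ was therefore within the common range of every list.

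**Figure D1:**
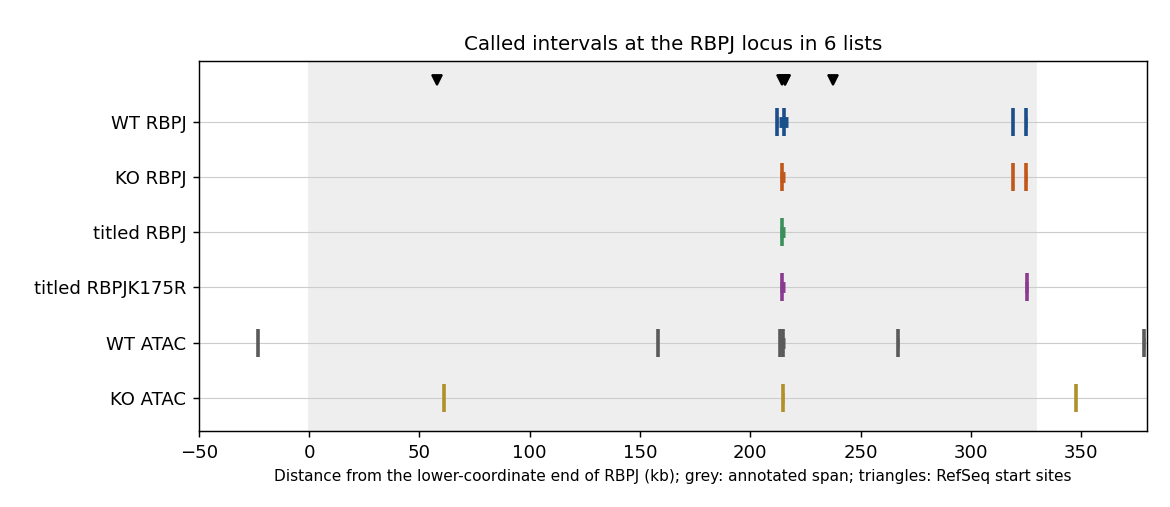
Called intervals in each of the 6 lists (rows) by distance in kb from the lower-coordinate end of RBPJ, with the annotated gene in grey and RefSeq start sites as triangles. All 6 lists have an interval at the clustered starts, and 3 lists have an interval near the upper-coordinate end of the gene.

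Of the 4 WT RBPJ intervals, 3 overlapped a KO RBPJ interval by at least 1 bp, against 32.1% of all WT RBPJ intervals, and 3 of 3 did in the reverse direction, against 38.1%. The 1 titled RBPJ interval overlapped titled RBPJK175R, against 43.8%, and 1 of 2 did in reverse, against 39.7%. In ATAC, 1 of 6 WT intervals overlapped KO, against 40.2%, and 1 of 3 KO intervals overlapped WT, against 64.2%. These numbers of members are too small to set apart from the background shares. The internal start region was the only place at the locus with an interval in every list. Intervals that overlapped all 5 other lists made up 9.0% of WT RBPJ, 10.1% of KO RBPJ, 18.8% of titled RBPJ, 16.0% of titled RBPJK175R, 11.7% of WT ATAC and 18.4% of KO ATAC.

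The internal start region was covered by 7 intervals between 26318634 and 26322480, and by all 6 lists over a shared 1034 bp, chr4:26319822-26320855. The WT RBPJ interval, chr4:26318634-26322480, was 3847 bp wide and reached a pileup of 950 reads (891 to 1012) over a background of 21.8, at an authors' fold of 41.7. In KO RBPJ the interval chr4:26318872-26321065 reached 216 reads (188 to 247) over 12.3, at a fold of 16.3. The titled RBPJ interval, chr4:26318706-26321231, reached 198 reads (171 to 228) over 4.93, at a fold of 32.4. WT RBPJ was thus the highest and widest of the RBPJ lists here. The titled RBPJK175R interval, chr4:26318918-26321055, reached 85 reads (67.9 to 105) over 1.37, at a fold of 36.4. WT ATAC had a smaller interval, chr4:26318980-26319278, of 19 reads and a larger one, chr4:26319546-26320964, of 35 reads (24.4 to 48.7) at a fold of 6.56. In KO ATAC the interval chr4:26319822-26320855 reached 15 reads (8.40 to 24.7) at a fold of 6.97. The RBPJ intervals ranked high in their own lists by pileup, at 34 of 42656 in WT RBPJ, 174 of 36877 in KO RBPJ, 260 of 19913 in titled RBPJ and 309 of 22691 in titled RBPJK175R. The larger WT ATAC interval ranked 2397 of 31886 and the KO ATAC interval 3494 of 20093, lower in their lists than the RBPJ intervals were in theirs.

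The summits lay at different places within this region. From the start site at 26319746, the summit was 7 bp downstream in WT RBPJ, 72 bp in titled RBPJK175R, 271 bp in KO RBPJ and 787 bp in titled RBPJ. The main ATAC summits lay further on, at 958 bp in WT ATAC and 851 bp in KO ATAC, and the smaller WT ATAC summit lay 646 bp upstream. From the first base of the forward TGGGAA match, the summit was 79 bp downstream in WT RBPJ and 144 bp in titled RBPJK175R. It was 343 bp downstream in KO RBPJ and 859 bp in titled RBPJ. Both matches lay inside all 4 RBPJ intervals and the larger WT ATAC interval, and outside the KO ATAC interval. The RBPJ intervals covered 3 of the 5 RBPJ start windows in each RBPJ list, against 45.8% of all start windows in WT RBPJ, 30.8% in KO RBPJ, 30.4% in titled RBPJ and 20.8% in titled RBPJK175R. In each of these lists a single interval covered all 3, and the windows at 26321014 and 26321228 overlap, so the 3 are not separate calls. WT ATAC covered 2 of 5, against 45.9%, and KO ATAC 1 of 5, against 34.2%. The start windows at 26163458 and 26343140 had no interval in any list.

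**Figure D2:**
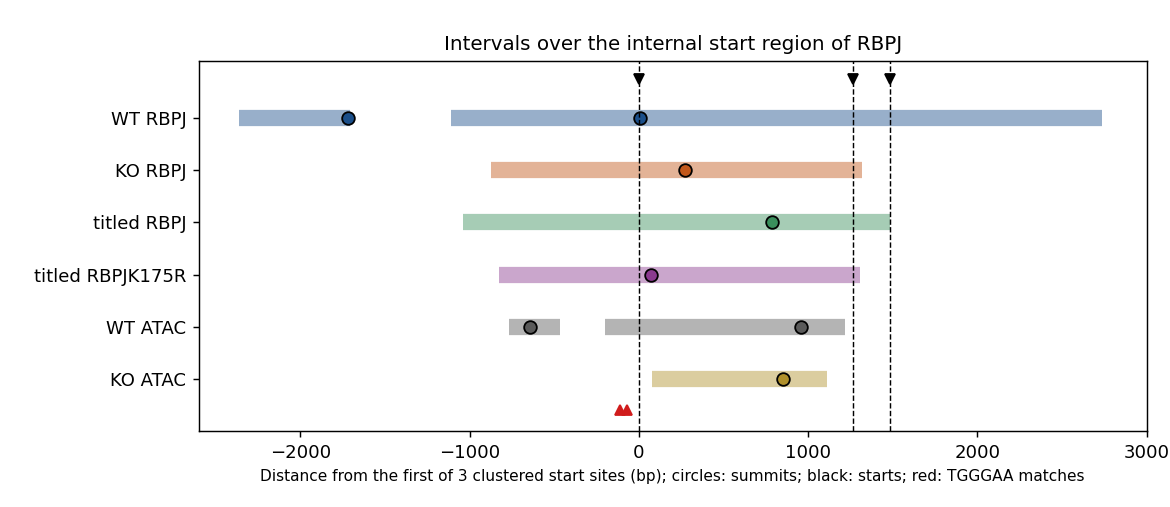
Intervals (bars) and summits (circles) of the 6 lists around the clustered RBPJ start sites, in bp from the first of the 3 starts, with starts as dashed lines and TGGGAA matches as red triangles. The WT RBPJ summit sits 7 bp and the titled RBPJK175R summit 72 bp from that start, while the main ATAC summits sit at 958 and 851 bp.

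Between libraries, pileups in the internal start region were compared per depth unit. KO RBPJ had 0.247 times the WT RBPJ value (0.212 to 0.287), a difference well beyond counting error. Over all 13698 overlapping pairs of intervals the same ratio had a median of 0.749, with the 5th to 95th percentile from 0.355 to 1.78, and 86 pairs were lower than RBPJ. Over the 72 pairs whose WT pileup was within 1.5 times that of RBPJ, the median was 0.504, with percentiles of 0.256 to 0.815, and 4.17% were lower. Computed from the authors' folds the KO to WT ratio was 0.390, since the local background also differed. The lower value at RBPJ thus held in direction under both, while its size depended on the measure. That direction was common, since 30.8% of the overlapping pairs had a ratio per depth unit above 1. The ratio from folds is given without those of other pairs.

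Titled RBPJK175R had 0.804 times the titled RBPJ value (0.616 to 1.04), against a median of 1.02 over 8729 overlapping pairs and percentiles of 0.555 to 1.87. That ratio lay inside its counting error of 1 and inside the range of most pairs. The authors' folds gave 1.12. KO ATAC had 0.970 times the WT ATAC value (0.492 to 1.82), against a median of 1.19 over 12811 pairs and percentiles of 0.646 to 2.26. Neither comparison showed a difference at this depth. Without the correction for depth both ratios were 0.429, with titled RBPJK175R at 53.4% of the depth unit of titled RBPJ and KO ATAC at 44.2% of that of WT ATAC.

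The second interval lay 101857 bp above the internal start region, inside the gene, and was called in WT RBPJ and KO RBPJ only. In WT RBPJ, chr4:26424340-26424720 reached 12 reads (6.20 to 21.0) over a background of 1.77, at a fold of 4.69. Its −log10 q was 4.86, so this call was lost at a limit of 5, and the ratio given for this interval rests on it. In KO RBPJ, chr4:26424338-26424743 reached 99 reads (80.5 to 120.5) over 1.63, at a fold of 38.0. The knockout library was high and the wild-type library low here, the reverse of the internal start region. The intervals began within 2 bp and ended within 23 bp of each other, and their summits were 16 bp apart, at 26424453 and 26424469. Per depth unit the KO to WT ratio was 8.96 (4.91 to 17.9). Among 8748 pairs of intervals with summits within 250 bp of each other, a pairing chosen after seeing the data, the median ratio was 0.659 and none was higher than the second interval. Among all 13698 overlapping pairs 23 were higher. Ratios ran higher where the WT pileup was as low as here. Over the 4022 pairs whose WT pileup was within 1.5 times that of the second interval, the median was 1.21. The 5th to 95th percentile of those pairs ran from 0.724 to 2.17, and 99.8% were lower than the second interval. Within its list it ranked 28816 by pileup in WT RBPJ, and 689 by pileup and 129 by fold in KO RBPJ.

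The extreme interval lay a further 5147 bp above, and its summit was 4298 bp below the upper-coordinate end of the gene. It was called in WT RBPJ as chr4:26429892-26431008, with 79022 reads at the summit over a background of 44.3. In KO RBPJ it was chr4:26429891-26431010, with 211241 reads over a background of 6.01. In titled RBPJK175R it was chr4:26429902-26431473, with 252672 reads over a background of 198491. Titled RBPJ and both ATAC lists had no interval there, and a list holds no value for a site that was not called, so few reads and a high background cannot be told apart in them. The summit fell on the same base, 26430833, in all 3 lists that called it. WT RBPJ and KO RBPJ began within 1 bp and ended within 2 bp of each other, while titled RBPJK175R ended 465 bp beyond the earliest end.

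The extreme interval had the highest pileup of each of these 3 lists. It was 10.4 times the next highest in WT RBPJ, which had 7634 reads at LOC102724250 and MTATP6P1, the latter a pseudogene of a mitochondrial gene. It was 128 times the next in KO RBPJ, at 1655 reads, and 229 times the next in titled RBPJK175R, at 1105 reads, both at LOC102724701. Per depth unit KO RBPJ had 2.90 times the WT RBPJ value (2.88 to 2.93), and 5 of the 8748 pairs with nearby summits and 109 of the 13698 overlapping pairs were higher.

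Fold and background separated the 3 lists more than pileup did. The extreme interval ranked first by fold in WT RBPJ, at 1744.8, and in KO RBPJ, at 30152. In titled RBPJK175R its fold was 1.27, the lowest of all 22691 intervals, although it ranked first by pileup, by p-value and by background. The titled RBPJK175R background there was 4338 times the next highest in that list, 45.8, and left 54181 reads above it. In KO RBPJ the background was 3.68 times the depth unit and ranked 3431, and in WT RBPJ it was 25.0 times and ranked 18. The sources used here do not give which control library, if any, stood behind each background.

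The pileups were also set against the number of fragments that could differ. Counting every pair of a start base and an end base that lie inside the interval and span the summit gives 165792 pairs in WT RBPJ, 167854 in KO RBPJ and 597412 in titled RBPJK175R. The KO RBPJ pileup was 1.26 reads per pair. If its fragments lay inside the called interval, some of them shared both ends. In WT RBPJ and titled RBPJK175R the pileup was below the number of pairs, which does not show whether their reads shared ends. The number of pairs also depends on the width of the called interval, which was 1572 bp in titled RBPJK175R. The lists hold no reads, junctions or alleles. Whether the DNA at this interval came from the chromosomal gene, from DNA introduced into the cells or the library, or from an edited locus was not tested.

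**Figure D3:**
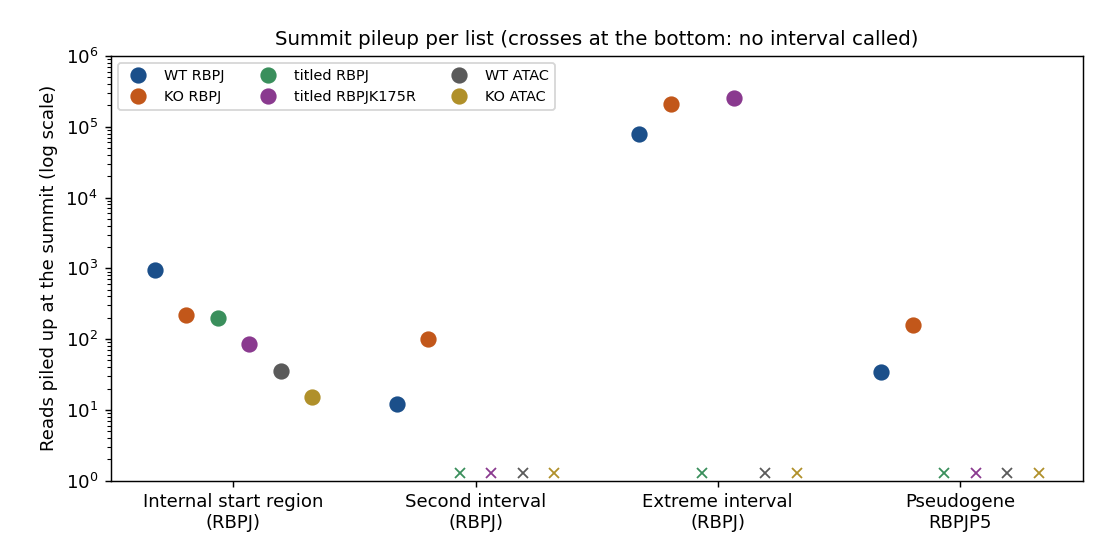
Reads piled up at the summit (log scale) in each of the 6 lists for the 3 regions of RBPJ and the pseudogene RBPJP5, with a cross where a list has no interval. WT RBPJ is highest in the internal start region at 950 reads, while KO RBPJ is above WT RBPJ in the other 3 places.

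RBPJ has pseudogenes, copies with related sequence elsewhere in the genome, and reads from a copy and from the gene need not be told apart by alignment. RBPJP5, chr9:39738896-39741367, had an interval in WT RBPJ and KO RBPJ and in none of the other 4 lists, the same lists as the second interval. In WT RBPJ, chr9:39740275-39740759 reached 34 reads over 1.77, at a fold of 12.6. In KO RBPJ, chr9:39740201-39741094 reached 159 reads over 1.63, at a fold of 60.8. Their summits, at 39740685 and 39740684, were on neighbouring bases. The KO to WT ratio per depth unit was 5.08 (3.49 to 7.59), and of the 8748 pairs with nearby summits 1, the second interval, was higher. Of the 13698 overlapping pairs 48 were higher. RBPJP6, RBPJP7 and RBPJP2, the other RBPJ pseudogenes annotated on chromosome 9, had no interval in any list. RBPJL, a related protein-coding gene, had 1 interval, in WT ATAC, of 8 reads. The sequence under the second and extreme intervals and how reads with several matches were placed were not used here, so a link between RBPJP5 and the gene was not tested.

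**Figure D4:**
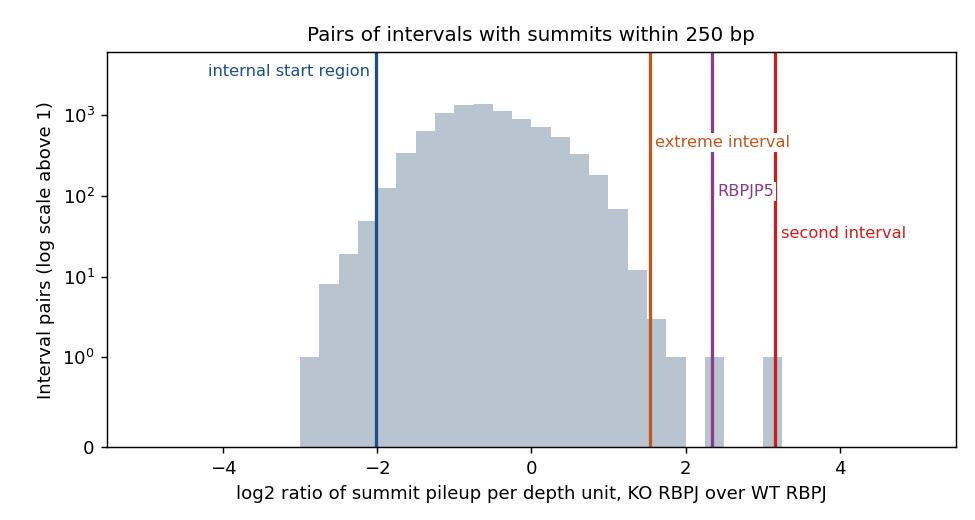
Numbers of interval pairs with summits within 250 bp (vertical axis, log scale above 1) by the log2 ratio of summit pileup per depth unit in KO RBPJ over WT RBPJ. The second interval (8.96 times), RBPJP5 (5.08) and the extreme interval (2.90) are among the 6 highest ratios of these pairs, and the internal start region (0.247) is in the lower tail.

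The 7 isolated intervals were low. WT RBPJ had chr4:26317385-26318041, with 18 reads at a fold of 3.21, just below the internal start region. WT ATAC had chr4:26081832-26082331 in the lncRNA gene LINC02357, with 6 reads, chr4:26263336-26263616 in RBPJ and the lncRNA gene LOC124900690, with 7, chr4:26372302-26372916 in RBPJ, with 6, and chr4:26483919-26484338 in CCKAR, the gene of a cholecystokinin receptor, with 7. KO ATAC had chr4:26166468-26166784 in RBPJ and LOC105374541, with 3 reads, and chr4:26452859-26453170 in no annotated gene, with 6. Their −log10 q ran from 1.56 to 4.66, and each was called in a single list. Whether they lie in exons or introns was not determined, since exon positions were not used here.

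The genes of the RBPJ nuclear complex were set beside RBPJ by the same start windows, with 23 of 25 in the table. WT RBPJ had an interval at 20 of them, against 50.8% of all protein-coding genes, KO RBPJ at 11, against 34.5%, titled RBPJ at 10, against 34.4%, and titled RBPJK175R at 10, against 23.7%. WT ATAC had 13, or 56.5% of them against 52.7% of all genes, and KO ATAC 10, or 43.5% against 40.5%, both near the background. The receptor gene NOTCH1 had 47 reads in WT RBPJ, 27 in KO RBPJ and 20 in titled RBPJ, and no interval in titled RBPJK175R. The coactivator gene MAML3 had 250, 61, 82 and 23 reads in WT RBPJ, KO RBPJ, titled RBPJ and titled RBPJK175R. SPEN, which encodes a corepressor that binds RBPJ, had 1822, 625, 646 and 42 reads in the same order and no interval in either ATAC list. RITA1, which encodes a protein that binds RBPJ and exports it from the nucleus, had 165, 88, 78 and 25. These 4 genes had their highest pileup in WT RBPJ and their lowest, or no interval, in titled RBPJK175R, the shallowest of the RBPJ libraries. They were named after their values were seen, and other members of the list differed. CTBP2, which encodes a corepressor, had 38 reads in WT RBPJ and 46 in KO RBPJ. The acetyltransferase gene KAT2A had 23 reads in WT RBPJ and 15 in titled RBPJK175R, and the histone deacetylase gene HDAC1 had 61 and 16, and neither had an interval in KO RBPJ or titled RBPJ. Per depth unit, KAT2A, SNW1 and L3MBTL3 were highest among the RBPJ lists in titled RBPJK175R, at 22.2, 17.8 and 19.3. By contrast with its ATAC ranks of 1843 of 8346 genes in WT ATAC and 2587 of 6410 in KO ATAC, RBPJ itself ranked 30 of 8042 genes by the pileup at its start windows in WT RBPJ, 139 of 5472 in KO RBPJ, 214 of 5444 in titled RBPJ and 244 of 3761 in titled RBPJK175R.

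The genes most like RBPJ over the 6 lists were found by Euclidean distance, taking log2(1 + pileup per depth unit) of the highest summit in each protein-coding gene. RBPJ itself was given the value of the named region. For the internal start region the most like genes were UQCRC2 at 0.98, THAP1 at 1.02, IKBIP at 1.03, BORCS7 at 1.04 and MAF1 at 1.07. With only intervals within 1 kb of either gene end, MGRN1 at 0.81 and HES4 at 0.88 were nearer than these. RBPJ was 9.07 in WT RBPJ on this scale, where UQCRC2 was 8.38. For the extreme interval the nearest was CDCA3 at 16.27, with 10.75 in WT RBPJ where the extreme interval was 15.45. A list without an interval was set to 0 on this scale, although an uncalled site has no value, and the extreme interval was singled out for its pileup. The distances to it are therefore a description only.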

How the data were processed

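Peak lists from 6 libraries were analysed, and values of the 3 IgG libraries were not analysed here. Per the submitters' processing notes, the authors used Trim Galore, Bowtie2, MACS2, deepTools and hg38. The sources used here do not give versions, settings, controls or duplicate handling. Each deposited row gives a score, a fold (a ratio of pileup to background, each with 1 added), a −log10 p-value, a −log10 q-value and the summit position. The fold and the −log10 values are the authors', per interval, and rank intervals within a list.

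Only intervals on autosomes 1 to 22, X and Y entered, and coordinates are 1-based. Pileup and background were solved from the deposited fold and −log10 p under a Poisson model. Pileups came out whole (within 0.05 reads up to 100 reads) in at least 99.98% of intervals, after scaling by 0.812 in titled RBPJ. On 5003 simulated rows 99.98% were recovered. Ratios of pileups per depth unit carry exact binomial intervals, and single pileups exact Poisson intervals. RefSeq tables gave gene spans, and 35116 start windows. Python 3.11.15, numpy 2.4.6, scipy 1.17.1, pandas 2.3.3 and matplotlib 3.10.9 were used.

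Named genes were RBPJ, its neighbours and pseudogenes, the nuclear complex list, genes at the 5 highest pileups of each list, the 5 most like genes, and FBXO42; values are printed for those the text turns on. The locus, gene lists and rules were chosen with earlier results of these data known. Alternatives were stricter q-values, the gene span alone, other overlap rules and other depth measures.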

Additional observations from a re-analysis of the deposited data

How the results depend on the processing

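Over 20 results and 56 alternatives, 38 stayed within the tolerance, 18 were counted as moved and 0 as reversed. The tolerance was a factor of 1.5 for counts and ranks and the counting interval for ratios. Within it, the gene span alone left 4 of 6 intervals in WT ATAC and 2 of 3 in KO ATAC. Also within it, the WT RBPJ intervals that overlapped KO RBPJ fell from 3 to 2 with summits within 250 bp and with a −log10 q of at least 5. With a −log10 q of at least 5 the locus kept 2 intervals in WT RBPJ, 1 in WT ATAC and 1 in KO ATAC, and with at least 10 it kept 2, 1 and 0. The WT RBPJ intervals lost at 5 were the second interval and the isolated one below the internal start region. When summits had to lie within 250 bp, 0 titled RBPJ intervals at the locus matched titled RBPJK175R. The KO to WT RBPJ ratio in the internal start region was 0.30 with median pileup as depth and 0.390 from the authors' folds. The titled RBPJK175R to titled RBPJ ratio was 0.429 without depth correction and 1.12 from folds, and the ATAC ratio was 0.429 without correction. From folds both ratios lay on the other side of 1 than their main values of 0.804 and 0.970. The first was counted as moved and the second, at 1.06, as within the tolerance. The extreme interval of titled RBPJK175R ranked 22691 by fold in place of first by pileup. Of the 5 genes most like the internal start region, 2 were shared when only gene ends were used. Pairing by summits, added after seeing the data, lowered the number of pairs with a higher ratio from 13611 to 8673 for the internal start region, 23 to 0 for the second interval, 109 to 5 for the extreme interval and 48 to 1 for RBPJP5, over fewer pairs. The cause of these moves was not tested. No paired analysis was possible because each group had 1 library, and for the same reason none could be left out. Depth limits the ATAC intervals most, with 35 and 15 reads in the internal start region.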

Other observations

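Outside the gene, the pairs with the highest KO to WT RBPJ ratio and summits within 250 bp were, after RBPJP5, at CLCN7 and LOC647211 (10 and 31 reads in WT RBPJ and KO RBPJ, ratio 3.37), DUX4L8 (56 and 154 reads, 2.99) and GAGE2A (18 and 49 reads, 2.96). CLCN7 encodes a lysosomal chloride transporter, DUX4L8 belongs to a repeated gene family, and so does GAGE2A. The nearest called intervals beyond the window were 44.4 kb above it in titled RBPJK175R, with 5 reads, and 61.5 kb below it in WT ATAC, with 6 reads.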
